A study of Mus musculus with 16 samples.

Results

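The genes described here are those that encode collagen chains, laminin chains and the proteins that join them into basement membranes, followed across 16 libraries of mouse visceral endoderm and gut tube. Of 26761 gene symbols in the files, 60 had the name of a collagen alpha chain, of a laminin alpha, beta or gamma chain, or of Nid1, Nid2, Hspg2, Agrn or Sparc. The 58 with 10 or more counts in 2 or more libraries were taken; Col10a1 and Col19a1 did not reach that level. This rule used names and counts and no difference between groups, but it was set with earlier results of these data known. The 58 genes comprised 11 laminin chains, 6 type IV collagen chains, 11 fibrillar collagen chains, 6 type VI collagen chains, the multiplexins Col15a1 and Col18a1, 17 other collagen chains, and 5 linker and matricellular proteins.

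The study profiled polyadenylated RNA of mouse embryos in 8 groups of 2 libraries. At E7.5 these were the extraembryonic visceral endoderm (exVE) and the embryonic visceral endoderm (emVE), both labelled as cells. At E8.75, when embryos had 13 somites, they were undissociated bulk gut tube, dissociated gut tube cells, and 4 sections of the gut tube from front to back, labelled anterior, anterior-midgut, midgut-posterior and posterior. The labels describe Afp-GFP TG/+ embryos for the preparation of single cells, with a brief pancreatin and trypsin step on ice before dissection by needle and a warm Accutase and trypsin step for dissociation. They give no strain, no treatment and no genotype for each of these 16 libraries, and no number of embryos behind a library, and p-values therefore reflect only how far these libraries spread, which may be technical. The comparisons are between tissues, stages and preparations as labelled.

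A basement membrane is a thin sheet of matrix under an epithelium. Laminin heterotrimers polymerize on the cell surface, where integrins and dystroglycan hold them. Type IV collagen forms a second network, and nidogens, perlecan (Hspg2) and agrin (Agrn) tie the networks together and to heparan sulfate binding partners. Col4a1 and Col4a2 make the common type IV trimer, while Col4a5 and Col4a6 belong to trimers of more restricted tissues. Endoderm of the early embryo is a well known producer of Lama1, Lamb1, Lamc1 and type IV collagen, whereas fibrillar collagens such as Col1a1, Col1a2 and Col3a1 are typical products of mesenchyme and Col2a1 of notochord and cartilage.

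Col4a1 and Col4a2, and likewise Col4a5 and Col4a6, start close together on opposite strands, and sequence at these starts is shown because the 2 pairs had different levels across the groups. The windows come from RefSeq (GRCm38.p6) and run from 250 bases before to 50 bases after each annotated start. In this table the starts of Col4a2 (plus strand) and Col4a1 (minus strand) on chromosome 8 lie 21 bases apart and face each other, so that their windows share 78 bases. The 22 bases from one start to the other are chr8:11312805-11312826, printed on the plus strand. They are the first 22 bases downstream of both starts, inside both annotated transcripts, and not bases before a start. For the second pair, whose starts point away from each other, the 250 bases before the start are given on the strand of each gene: Col4a5 at chrX:141475169-141475418 (plus strand) and Col4a6 at chrX:141474077-141474326 (minus strand), with starts 1343 bases apart. Capitals mark the GC box letters GGGCGG or their reverse complement CCGCCC.
Col4a2 start to Col4a1 start: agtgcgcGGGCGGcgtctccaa
Col4a5: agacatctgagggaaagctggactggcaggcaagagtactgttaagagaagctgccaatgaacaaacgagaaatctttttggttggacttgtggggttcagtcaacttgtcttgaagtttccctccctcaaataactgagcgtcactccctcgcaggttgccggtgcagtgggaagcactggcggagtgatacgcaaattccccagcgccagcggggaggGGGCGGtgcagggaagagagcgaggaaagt
Col4a6: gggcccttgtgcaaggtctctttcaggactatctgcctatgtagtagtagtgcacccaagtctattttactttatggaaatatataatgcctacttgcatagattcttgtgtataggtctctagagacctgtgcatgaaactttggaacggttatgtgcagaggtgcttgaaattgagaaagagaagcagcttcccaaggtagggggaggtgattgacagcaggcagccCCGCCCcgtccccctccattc

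Promoter windows were found for 42 of the 58 genes. On either strand, GGGCGG or CCGCCC occurred in 28 of those 42 genes, or 30 of their 47 windows (63.8%), against 35.7% of all 32851 windows of the table. CCAAT or ATTGG occurred in 15 genes (31.9% of the windows, 37.4% of all windows), TATAAA or TTTATA in 4 genes (8.51% and 13.6%), and GATAA or TTATC in 7 genes (14.9% and 25.4%). These motifs do not contain each other. All 4 windows of Col4a1, Col4a2, Col4a5 and Col4a6 held the GC box letters, and those of Col4a1, Col4a2 and Col4a5 also held CCAAT or ATTGG. A match is only a run of letters in these windows, and binding was not measured.

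Libraries held between 57061536 and 84509973 counts, of which the 58 genes took 0.402% to 0.640%. Levels are CPM, counts scaled to the library size after the TMM method of edgeR. Its factors were 0.787 and 0.775 in exVE and between 0.997 and 1.10 in all other libraries. The tissue labels were checked against markers. The summed CPM of 10 visceral endoderm markers was 34844 and 36534 in exVE and 13508 and 14054 in emVE, and between 104 and 6674 in the gut tube libraries, and none of the 10 was at 0 in any library. In emVE, 8 notochord and node markers summed to 1096 and 1020 CPM, against 36.5 and 16.9 CPM in exVE. The 10 endothelial markers summed to 354 to 938 CPM in the gut tube libraries and to 33.0 to 110 CPM at E7.5. Each library pools all cells of a sample, so fewer cells of a type and less RNA per cell cannot be told apart.

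The laminin chains of the early embryo were among the most even genes. Lama5, the alpha chain common to many epithelial basement membranes, ranged only from 155 to 269 CPM over the 16 libraries. The lowest value was in dissociated replicate 1 and the highest in emVE replicate 2. Lamb1, the beta partner, ranged from 257 to 359 CPM, with its lowest value in exVE and its highest in the midgut-posterior section. Lamc1, the gamma chain shared by most laminins, ranged from 235 to 343 CPM apart from dissociated replicate 2, which stood at 154 CPM. Both midgut-posterior libraries of Lamb1 lay above all others.

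Lama1, the early embryonic laminin alpha chain, varied more. It stood at 141 and 152 CPM in exVE, 99.1 and 106 in emVE, 112 and 105 in bulk gut tube and 117 and 123 in dissociated cells. Along the tube it stood at 77.7 and 98.2 CPM in the anterior section, 128 and 123 in the anterior-midgut, 124 and 125 in the midgut-posterior, and 62.9 and 73.6 in the posterior section. Both middle sections were thus above both ends, and their 4 values lay within 5 CPM of each other. Per kilobase of exon, Lama5 exceeded Lama1 in every library. The ratio of Lama5 to Lama1 was 1.18 and 1.21 in exVE, 2.06 and 2.14 in emVE, 1.21 to 1.36 in the 4 middle libraries and 3.35 and 2.41 in the posterior section.

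Type IV collagen and Sparc led the set. Per kilobase of exon, Sparc, a secreted protein that binds collagen IV, was first in exVE with 242 and 281 CPM per kb. Col4a1 followed with 199 and 222 CPM per kb, Col4a2 with 114 and 123, and Nid2 with 109 and 107. The anterior section was the only group led by Col18a1, whose product carries endostatin, at 111 and 101 CPM per kb. Col4a1 to Col4a2 kept a ratio between 1.36 and 1.95 per kilobase in all 16 libraries, with the lowest value in dissociated replicate 2.

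**Figure D1:**
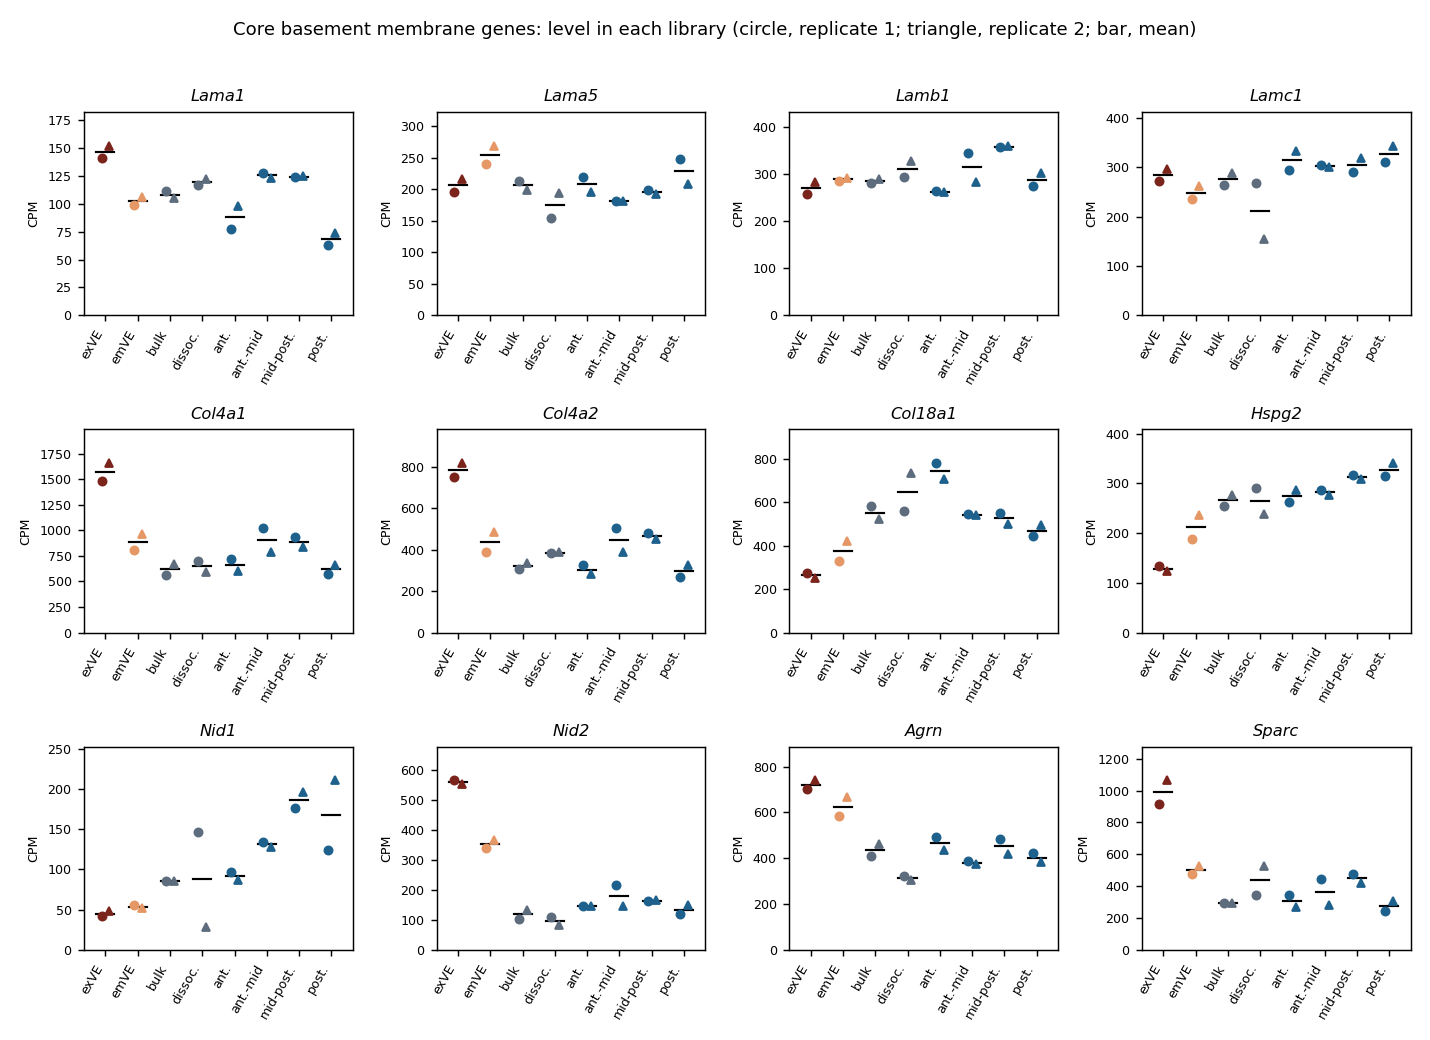
Levels of 12 core basement membrane genes in CPM (linear axes from 0) in the 8 groups; circles and triangles are replicates 1 and 2 and bars their mean. Col4a1, Col4a2, Nid2 and Sparc are highest in exVE, Lama1 is low at both ends of the tube, and Nid1 differs between the 2 dissociated libraries (147 and 28.7 CPM).

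The first comparison asked how the 2 parts of the E7.5 visceral endoderm differ. In exVE relative to emVE, Col4a1, Col4a2, Sparc, Nid2, Lama1 and Col27a1 were higher, while most other collagens and the minor laminin chains were far lower or had no counts. Of the 58 genes, 37 passed at an adjusted p under 0.05 in edgeR, against 43.9% of all genes tested. Of these, 6 were higher in exVE and 31 lower, where 20.1% and 23.8% of all genes passed in those directions. The median log2 fold change of the 58 was -2.24, or -1.70 when genes without counts in exVE take their bound, against 0.00 over all genes tested.

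Col4a1 stood at 1484 and 1659 CPM in exVE and 812 and 966 CPM in emVE. Both exVE libraries were above every other library of the series, and the log2 fold change was 0.82 (SE 0.16, adjusted p = 0.0017, edgeR). Col4a2 did the same, at 753 and 817 against 390 and 484 CPM (log2 0.85, SE 0.15, adjusted p = 0.000899). Sparc stood at 915 and 1063 CPM against 475 and 525 CPM (log2 0.98, SE 0.24, adjusted p = 0.00531). These 3 calls held in every alternative fit and with each library left out. On library totals alone, with no TMM factor, the changes were smaller. The log2 fold change was then 0.44 for Col4a1 (adjusted p = 0.0456, edgeR), 0.47 for Col4a2 (0.0227) and 0.61 for Sparc (0.0470).

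Nid2, one of the nidogen linkers, stood at 566 and 552 CPM in exVE and 340 and 366 CPM in emVE. The groups did not overlap, with a log2 fold change of 0.66 (adjusted p = 0.0152), but the adjusted p rose above 0.05 whenever 1 of the 4 libraries was left out (0.0507 to 0.0935). Lama1 rose by 0.51 (SE 0.12, adjusted p = 0.00482). On library totals alone, with no TMM factor, the log2 fold change was 0.13 for Lama1 (adjusted p = 0.365) and 0.29 for Nid2 (adjusted p = 0.261), so both calls rest on the scaling of the exVE libraries. Col27a1, a fibrillar-class chain, was the largest rise, from 19.3 and 27.2 CPM in emVE to 63.0 and 89.6 CPM in exVE (log2 1.71, SE 0.24, adjusted p = 0.000149).

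Perlecan and Col18a1 went the other way among the core genes. Hspg2 stood at 133 and 124 CPM in exVE and 188 and 236 in emVE, a fall of 0.72 on the log2 scale (SE 0.13, adjusted p = 0.000731). Col18a1 fell by 0.52 (SE 0.15, adjusted p = 0.0127), from 331 and 421 CPM to 274 and 251 CPM, but not without exVE replicate 2 (adjusted p = 0.0887) or without emVE replicate 2 (adjusted p = 0.136). Agrn, Nid1, Lamb1, Lamb2, Lamc1 and Lama5 did not pass, with log2 fold changes between -0.30 for Lama5 and 0.20 for Agrn. On library totals alone, Lama5 (log2 -0.68, adjusted p = 0.000916) and Lamb1 (log2 -0.47, adjusted p = 0.00257) passed as lower in exVE.

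The second type IV pair differed in the direction opposite to the first. Col4a5 stood at 0.928 and 0.467 CPM in exVE and 4.63 and 4.75 in emVE (log2 -2.75, SE 0.48, adjusted p = 0.000722). Col4a6 stood at 0.645 and 0.973 CPM against 3.89 and 3.55 CPM (log2 -2.20, SE 0.24, adjusted p = 3.23e-05). Both exVE libraries were below both emVE libraries for each gene. Col4a3 and Col4a4, the remaining chains, reached no more than 0.777 CPM in any library.

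The minor laminin chains were also lower in exVE. Lamb3, the beta chain of the epithelial anchoring laminin, stood at 0.928 and 0.642 CPM in exVE and at 15.5 and 13.5 CPM in emVE (log2 -4.20, SE 0.36, adjusted p = 5.61e-06). Lama3, an alpha chain found with Lamb3, passed with a log2 change of -1.91, though not without exVE replicate 2 (adjusted p = 0.209) or emVE replicate 2 (adjusted p = 0.155). Lama2, the muscle-type alpha chain, had 0 counts in both exVE libraries and 2.26 and 1.40 CPM in emVE. It was at least 60.8-fold lower, taking 3 counts in the exVE group as the limit, and Lamc3 at least 12.8-fold lower. In all, 1 laminin chain rose and 5 fell, where 20.1% and 23.8% of all genes passed in those directions. Lama4 stood at 4.72 and 0.506 CPM in exVE, on both sides of the 1.22 and 2.69 CPM of emVE, and did not pass (log2 0.41, adjusted p = 0.675). Endothelial markers were also apart between the exVE libraries, at 110 and 55.6 CPM summed.

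Among the fibrillar, type VI and other collagens, 1 of 11 fibrillar chains rose and 6 fell. Of 6 type VI chains 3 fell, and of 17 other collagen chains 12 fell. Over all genes tested, 20.1% passed as higher and 23.8% as lower. Col2a1, the notochord and cartilage collagen, stood at 3.57 and 1.26 CPM in exVE and 77.7 and 90.6 CPM in emVE (log2 -5.12, SE 0.58, adjusted p = 3.64e-05). Col11a1, a chain that joins Col2a1 in fibrils, stood at 0.444 and 0.233 against 2.73 and 3.38 CPM (log2 -3.17). The collagen IX chains Col9a1, Col9a2 and Col9a3 fell by 3.63, 3.87 and 3.65 on the log2 scale. The transmembrane collagen Col13a1 stood at 0.282 and 0.233 CPM against 9.07 and 12.6 CPM (log2 -5.39). Col22a1 and Col26a1 had 0 counts in both exVE libraries, at least 89.0-fold and 92.3-fold lower than in emVE, and Col17a1 was at least 21.7-fold lower. Col1a1 (0.121 and 0.233 against 1.63 and 1.43 CPM) did not pass (adjusted p = 0.0819), and Col3a1 was at or below 0.156 CPM in all 4 libraries.

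The notochord and node markers moved with these collagens. All 8 were lower in exVE, with Brachyury (T) at 8.63 and 5.15 CPM against 393 and 380 CPM and Shh at 0.121 and 0 CPM against 18.7 and 24.1 CPM. The paraxial mesoderm list summed to 4.25 and 1.71 CPM in exVE and 104 and 99.8 CPM in emVE, with 6 of 11 genes lower. Of 8 epiblast and nascent mesoderm markers 6 were also lower in exVE (median log2 -4.40), though the sums overlapped, at 587 and 645 CPM against 723 and 539 CPM. Other lists ran with the genes that were higher. Of 8 primitive blood markers 6 were higher in exVE and none lower, at 73.6 and 33.8 CPM summed against 13.8 and 16.3 CPM, and of 10 endothelial markers 5 were higher and none lower, at 110 and 55.6 CPM against 33.0 and 48.7 CPM. Their part in the collagen differences was not tested. Of 8 parietal endoderm markers, 2 were higher and 4 lower in exVE, with sums of 460 and 484 CPM in exVE and 382 and 420 in emVE. Thbd was at 0.0807 and 0.0778 CPM and Plat at 3.91 and 2.61 CPM in exVE, while Pth1r was at 184 and 207 CPM.

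**Figure D2:**
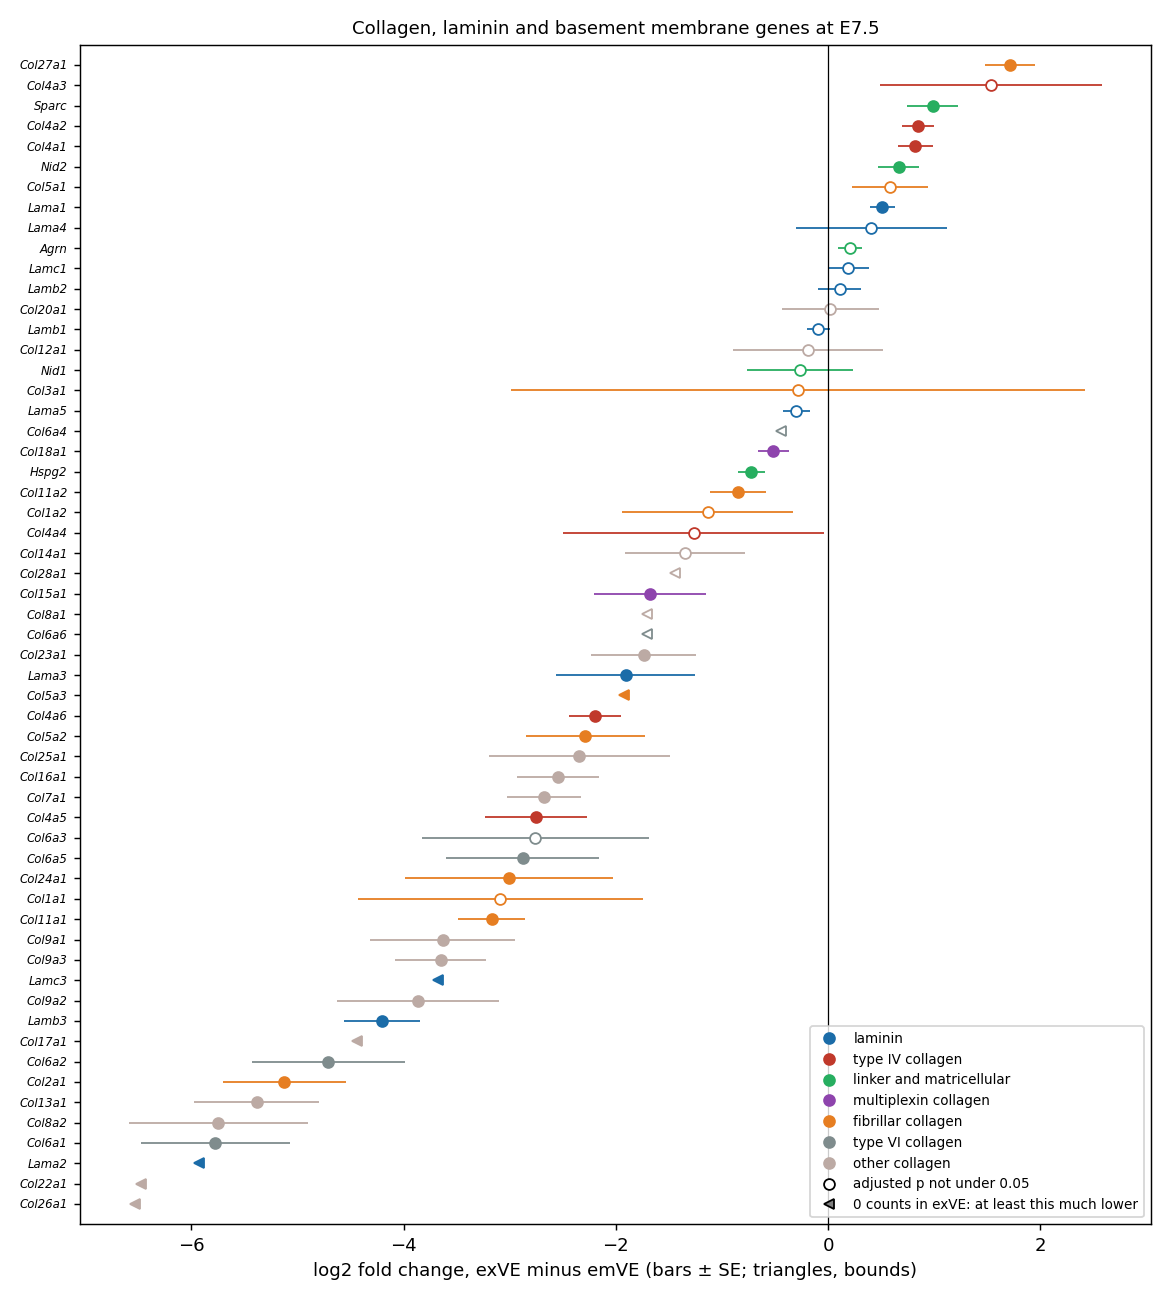
Log2 fold change of 57 of the 58 genes in exVE minus emVE, coloured by class, with bars of 1 SE (2 libraries a group). Filled symbols passed at an adjusted p under 0.05. Triangles mark genes with 0 counts in both exVE libraries, placed at the bound given by 3 counts. Type IV collagen Col4a1 and Col4a2, Sparc and Nid2 lie to the right, and 30 genes that passed lie to the left.

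Bulk gut tube at E8.75 was then set against each E7.5 tissue. Mitochondrial genes took 1.63% and 2.56% of counts in bulk gut tube, against 5.75% to 6.65% in exVE and 4.77% and 5.48% in emVE, and the part of this difference in the results was not tested. The 2 comparisons share the bulk libraries, so their values are given side by side and are not independent. In bulk gut tube, Col4a5, Col4a6, Col18a1 and many chains of the fibrillar and other collagen classes were higher than in either visceral endoderm tissue. Nid2, Agrn, Sparc, Col4a1 and Col4a2 were lower. Against emVE, 32 of the 58 genes passed, against 38.6% of all genes tested. They comprised 25 higher in the gut tube and 7 lower, where 21.7% and 16.9% of all genes passed. The median log2 fold change was 1.37, against 0.08 over all genes. Against exVE, 48 passed, against 61.6% of all genes tested. They comprised 41 higher and 7 lower, where 35.7% and 26% of all genes passed. The median was 4.09, or 3.58 when genes without counts in exVE take their bound, against 0.24.

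Col4a5 stood at 45.4 and 54.6 CPM in bulk gut tube, and Col4a6 at 37.9 and 39.7 CPM. No E7.5 library reached 5 CPM for either gene. Against emVE, Col4a5 rose by 3.41 (SE 0.43, adjusted p = 0.000136) and Col4a6 by 3.38 (SE 0.23, adjusted p = 6.17e-06), and against exVE by 6.17 and 5.58. In the sections, Col4a5 stood between 47.8 and 72.1 CPM and Col4a6 between 30.0 and 58.9 CPM, and neither passed in the test among sections. Dissociated replicate 2 was apart for Col4a5, at 14.9 CPM. Per kilobase, the pair made up 0.0700% and 0.0554% of all type IV transcripts in exVE, 0.697% and 0.566% in emVE, and 4.29% to 11.5% in the gut tube libraries.

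**Figure D3:**
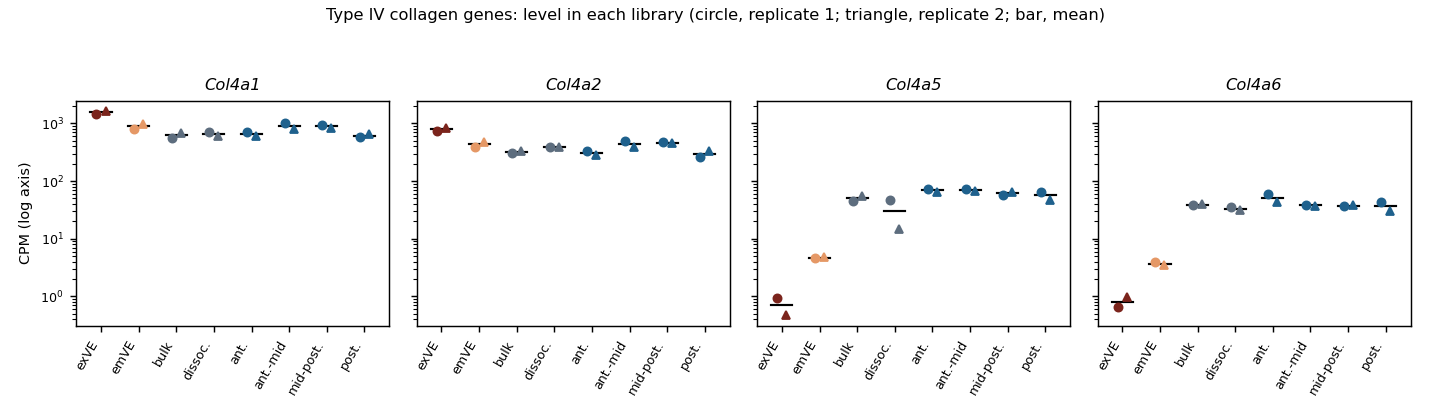
Levels of 4 type IV collagen genes in CPM on a logarithmic axis in the 8 groups; circles and triangles are replicates 1 and 2 and bars their mean. Col4a1 and Col4a2 are highest in exVE, while Col4a5 and Col4a6 are below 1 CPM in exVE, below 5 CPM in emVE and between 14.9 and 72.1 CPM in every gut tube library.

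Col18a1 stood at 583 and 521 CPM in bulk gut tube, above all 4 E7.5 libraries, and was higher than in emVE (adjusted p = 0.011), but not without bulk replicate 1 (0.0810) or emVE replicate 1 (0.110). Col4a1 and Col4a2 were lower in bulk gut tube than in emVE by 0.52 and 0.44 on the log2 scale (adjusted p = 0.025 and 0.04). Neither of these passed on library totals alone (adjusted p = 0.0628 and 0.0984), without bulk replicate 1 (0.186 and 0.204) or without emVE replicate 2 (0.173 and 0.292). Against exVE they were lower by 1.34 and 1.28 (adjusted p = 2.62e-05 and 2.16e-05), in every alternative. Nid2 stood at 104 and 134 CPM in bulk gut tube, below all 4 E7.5 libraries, with log2 changes of -1.57 against emVE (SE 0.20, adjusted p = 0.000131) and -2.24 against exVE (SE 0.20, adjusted p = 2.32e-06). Nid1 stood at 85.8 and 85.3 CPM in bulk gut tube, 41.6 and 47.7 in exVE and 55.8 and 51.4 in emVE, and did not pass in either comparison, though on library totals alone it passed against exVE (log2 1.42, adjusted p = 0.0301). The ratio of Nid2 to Nid1 per kilobase was 18.2 and 15.5 in exVE, 8.17 and 9.56 in emVE, and 0.954 to 3.86 in the gut tube libraries. Agrn, at 408 and 463 CPM in bulk gut tube, was lower than in emVE by 0.52 on the log2 scale (adjusted p = 0.00402; 0.0512 without bulk replicate 1). Sparc, at 296 and 293 CPM, was lower by 0.76 (adjusted p = 0.0232), and did not pass when any 1 of the 4 libraries was left out (0.0594 to 0.111).

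Several laminin chains were higher in the gut tube. Lama4, a chain of vascular and mesenchymal basement membranes, stood at 22.8 and 24.4 CPM in bulk gut tube and 1.22 and 2.69 CPM in emVE (log2 3.58, SE 0.74, adjusted p = 0.00274). Lama3 stood at 3.42 and 3.44 CPM against 0.411 and 0.639 CPM (log2 2.70, adjusted p = 0.00291). In all, 4 of 11 laminin chains were higher than in emVE and none lower, where 21.7% and 16.9% of all genes passed. Against exVE, 6 were higher, where 35.7% of all genes were. Only Lama1 was lower (log2 -0.43, adjusted p = 0.0081), where 26% of all genes were. The direction of Lama1 against exVE turned on library totals alone (log2 0.05, adjusted p = 0.698), and that of Lama5, which had not passed, turned to 0.49 (adjusted p = 0.00412). Without bulk replicate 2 or exVE replicate 2, Lama1 also did not pass (adjusted p = 0.0590 and 0.0609).

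Most fibrillar collagens were higher in the gut tube than in visceral endoderm. Col3a1 stood at 213 and 146 CPM in bulk gut tube and at no more than 0.156 CPM in the 4 E7.5 libraries. Col1a1 stood at 93.6 and 60.7 CPM against 1.63 and 1.43 CPM in emVE (log2 5.66, SE 1.02, adjusted p = 0.00125). Col5a2, a chain that joins type I fibrils, stood at 84.1 and 70.6 against 6.62 and 3.90 CPM (log2 3.88, adjusted p = 0.000222). Of 11 fibrillar chains, 7 were higher than in emVE and none lower, where 21.7% and 16.9% of all genes passed. Against exVE, 9 were higher and Col27a1 was lower, where 35.7% and 26% of all genes passed. Endothelial markers moved the same way, with 10 of 10 higher in bulk gut tube than in emVE, at 506 and 477 CPM summed against 33.0 and 48.7. So did 7 of 12 splanchnic and cardiac mesoderm markers, at 691 and 532 against 321 and 357 CPM. Foxf1, a mesenchymal factor of the gut wall, stood at 120.2 and 121 CPM in bulk gut tube and 2.43 and 4.23 CPM in emVE. Other lists ran the opposite way. Of 10 gut endoderm epithelium markers, 5 were lower in bulk gut tube than in emVE and none higher. Their sums were 2009 and 2031 CPM in bulk gut tube against 3920 and 4139 CPM. Of 10 visceral endoderm markers 9 were lower and none higher, and all 8 epiblast and nascent mesoderm markers were lower. The part of any of these lists in the collagen levels was not tested.

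The makeup of the set was taken per kilobase of exon. A group of 12 core genes (Lama1, Lama5, Lamb1, Lamc1, Col4a1, Col4a2, Col18a1, Hspg2, Nid1, Nid2, Agrn and Sparc) made up 97.7% and 97.8% of the summed CPM per kb of the 58 genes in exVE. It made up 93.5% and 93.6% in emVE and 71.6% to 87.8% in the gut tube libraries. This list was fixed by hand. Apart from Nid1, at rank 13 of the 58 in both E7.5 tissues, its genes were the highest per kb there. High shares at E7.5 thus follow largely from the choice. Fibrillar collagens took 1.12% and 1.29% in exVE, 2.36% and 2.52% in emVE, and 3.72% to 19.3% in the gut tube, with the lowest gut tube share in posterior replicate 1 and the highest in midgut-posterior replicate 2. The multiplexins took 4.31% and 3.64% in exVE, 7.64% and 8.47% in emVE, and 8.70% to 16.4% in the gut tube. Type VI collagen was below 1% in all libraries.

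**Figure D4:**
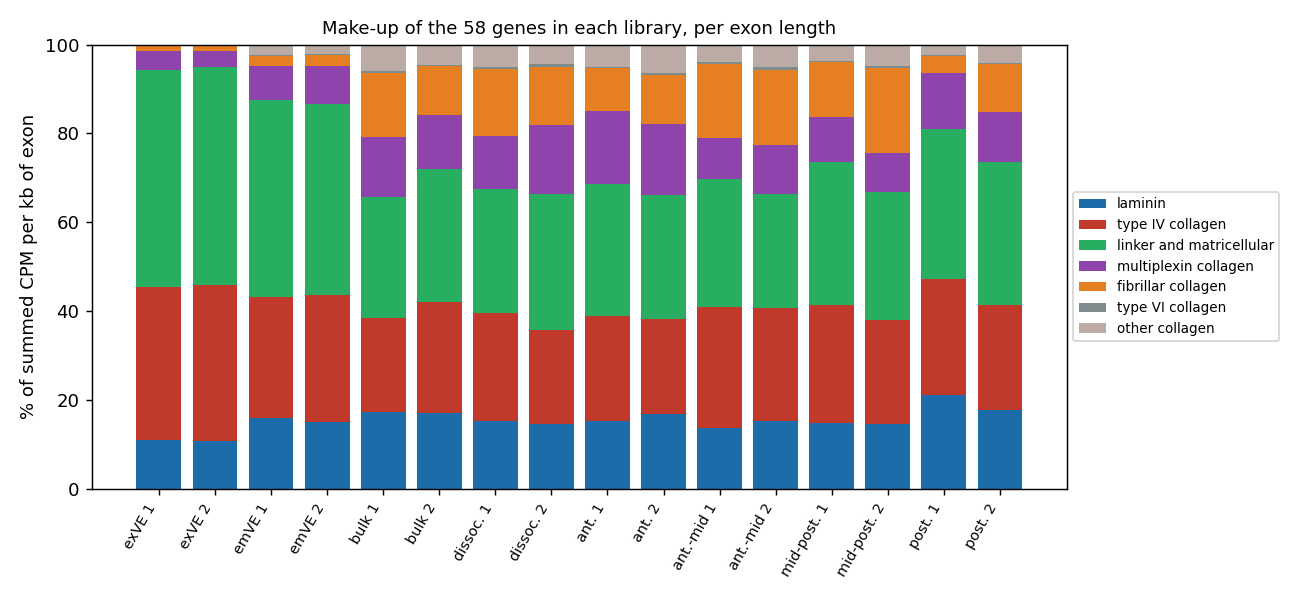
Share of each class in the summed CPM per kb of exon of the 58 genes, in percent, 1 stacked bar per library. Laminin, type IV collagen and the linker and matricellular genes fill most of each bar; the fibrillar share is 1.12% and 1.29% in exVE and up to 19.3% in the gut tube.

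Along the gut tube, Col2a1, Col11a1 and Col9a2 were highest at the front, Lama1 and Col4a2 in the middle, and Col27a1 at the back. An F-test across the 4 sections passed for 17 of the 58 genes, against 12.9% of all genes tested. By highest mean, 8 of the 17 peaked in the anterior, 2 in the anterior-midgut, 4 in the midgut-posterior and 3 in the posterior section. Between the posterior and the anterior section, 10 genes passed, against 7.91% of all genes tested. Of these, 1 was higher and 9 were lower at the posterior end, where 4.03% and 3.89% of all genes passed.

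Col11a1 stood at 52.2 and 40.0 CPM in the anterior section, 13.8 and 15.9 in the anterior-midgut, 10.6 and 13.5 in the midgut-posterior and 8.42 and 10.96 in the posterior section. The anterior libraries lay above all others, and the posterior level was lower by 2.25 on the log2 scale (SE 0.25, adjusted p = 0.000339). Col2a1 stood at 372 and 297 CPM in the anterior section, then 114 and 152, 66.9 and 57.6, and 37.8 and 39.1 CPM toward the posterior section. The libraries of neighbouring sections did not overlap at any step, and the change from end to end was -3.12 (SE 0.51, adjusted p = 0.00312). Col9a2, a collagen IX chain found on Col2a1 fibrils, stood at 28.8 and 23.5 CPM in the anterior section and 3.06 and 2.61 CPM in the posterior (log2 -3.20, SE 0.52, adjusted p = 0.00307). These 3 genes passed under every alternative and with each library left out. The other collagen IX chains did not pass among sections. Col9a1 stood at 26.6 and 35.0 CPM in the anterior section, 37.8 and 40.2 in the anterior-midgut, 28.3 and 40.0 in the midgut-posterior and 4.37 and 18.4 at the posterior end (adjusted p = 0.136). Col9a3 stood at 7.44 and 6.32 CPM in the anterior section, and posterior replicate 1 was level with it at 7.44 CPM (adjusted p = 0.546).

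Summed, the notochord markers were highest in the posterior section, where Col2a1 and Col11a1 had their lowest means, and lowest in the anterior-midgut. Of the 8, 3 passed among sections, against 12.9% of all genes tested, and these 3 peaked in the posterior section. The summed level of the 8 was 197 and 124 CPM in the anterior section, 82.7 and 84.6 in the anterior-midgut, 180 and 136 in the midgut-posterior and 794 and 387 CPM in the posterior section. Of 9 neural tube and neural crest markers, 7 passed among sections, against the same 12.9%, and 6 of these peaked in the anterior section. The 9 summed to 63.6 and 106.9 CPM there, against 6.91 to 45.7 CPM elsewhere. Their part in the anterior collagen levels was not tested.

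The multiplexins were also highest at the front. Col15a1 stood at 15.5 and 11.2 CPM in the anterior section and at 2.09 to 4.98 CPM in the other 6 section libraries (posterior against anterior log2 -2.01, SE 0.40, adjusted p = 0.00966). Col18a1 stood at 779 and 707 CPM in the anterior, 545 and 540 in the anterior-midgut, 551 and 501 in the midgut-posterior, and 444 and 493 CPM in the posterior section (log2 -0.67, adjusted p = 0.016). Col12a1, a fibril-associated collagen, stood at 16.8 and 15.1 CPM in the anterior section and at 1.96 to 5.23 CPM behind it (log2 -2.50, adjusted p = 0.00874). Col27a1 rose from 10.2 and 14.1 CPM in the anterior to 27.9 and 24.7 CPM in the posterior section (log2 1.12, adjusted p = 0.0126). Lama2, Col16a1 and Col11a2 were the other 3 that fell. These 7 genes each lost their call in at least 1 alternative. The number that passed was 5 without anterior replicate 1 and 6 without posterior replicate 1, where 3.44% and 3.83% of all genes passed.

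Lama1 was higher in the middle than at either end. It was higher in the anterior-midgut than in the anterior section (log2 0.52, SE 0.12, adjusted p = 0.0288) and lower in the posterior than in the midgut-posterior section (log2 -0.87, SE 0.12, adjusted p = 0.00444). Between the ends themselves it did not pass (log2 -0.37, adjusted p = 0.0936). Col4a2 had a similar profile, with 326 and 281 CPM in the anterior section, 503 and 387, then 480 and 450 in the middle, and 266 and 328 CPM in the posterior section. It passed in the test among sections (adjusted p = 0.0161) but in neither step alone (adjusted p = 0.0604 and 0.0503). Visceral endoderm markers moved with both genes, at 104 and 148 CPM summed in the anterior, 6674 and 2350 in the anterior-midgut, 5005 and 3189 in the midgut-posterior, and 139 and 1271 CPM in the posterior section. Their part was not tested.

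Between the anterior-midgut and the anterior section 6 genes passed, against 5.59% of all genes tested. Lama1 and Lamb3 were higher in the anterior-midgut, where 3.42% of all genes were, and 4 genes were lower, Col11a1, Col15a1 and Col9a2 among them, where 2.17% were. Lamb3 stood at 12.2 and 10.1 CPM in the anterior-midgut and 5.27 and 4.22 in the anterior section (log2 1.23, adjusted p = 0.0378). No one of the 6 passed in every alternative, and leaving out a library left 1 call (anterior replicate 1 removed, with 1.12% of all genes), 0 calls (anterior-midgut replicate 1, 1.18%) or 2 calls (anterior-midgut replicate 2, 3.88%).

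No member passed between the midgut-posterior and the anterior-midgut section in edgeR, where 0.497% of all genes did (0.173% higher and 0.323% lower). At an unadjusted p under 0.05 there were 6 members among 1241 genes, or 7.17% of all tested, and DESeq2 called 1 member, Col25a1, among 436 genes (2.52%). Between the posterior and the midgut-posterior section Lama1 alone passed, against 2.26% of all genes tested (1.13% higher and 1.14% lower). It did not pass with only these 2 groups in the fit (adjusted p = 0.056) or without posterior replicate 1 (adjusted p = 0.075), while 11 members passed without posterior replicate 2, among 797 genes (4.45%), and DESeq2 called 8 with all libraries, among 1291 genes (7.46%).

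The posterior libraries differed widely for the mesenchymal collagens. Col3a1 stood at 7.57 CPM in posterior replicate 1 and 133 CPM in replicate 2, and Col1a1 at 9.69 and 132 CPM. The middle sections held 339 to 647 CPM of Col3a1 and the anterior section 38.7 and 70.5 CPM. Col1a2 (15.4 and 128 CPM) and Col26a1 (7.55 and 29.3 CPM) showed the same split between posterior libraries. Foxf1 moved with them, at 22.5 and 167 CPM, and so did Hand1, a lateral mesoderm factor, at 13.0 and 123 CPM. The whole splanchnic and cardiac list summed to 247 and 701 CPM in the posterior libraries, and their part was not tested. Col3a1 passed among sections (adjusted p = 0.0466), but its posterior against anterior change was 0.36 with both libraries and -2.85 without posterior replicate 2 (adjusted p = 0.0207).

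**Figure D5:**
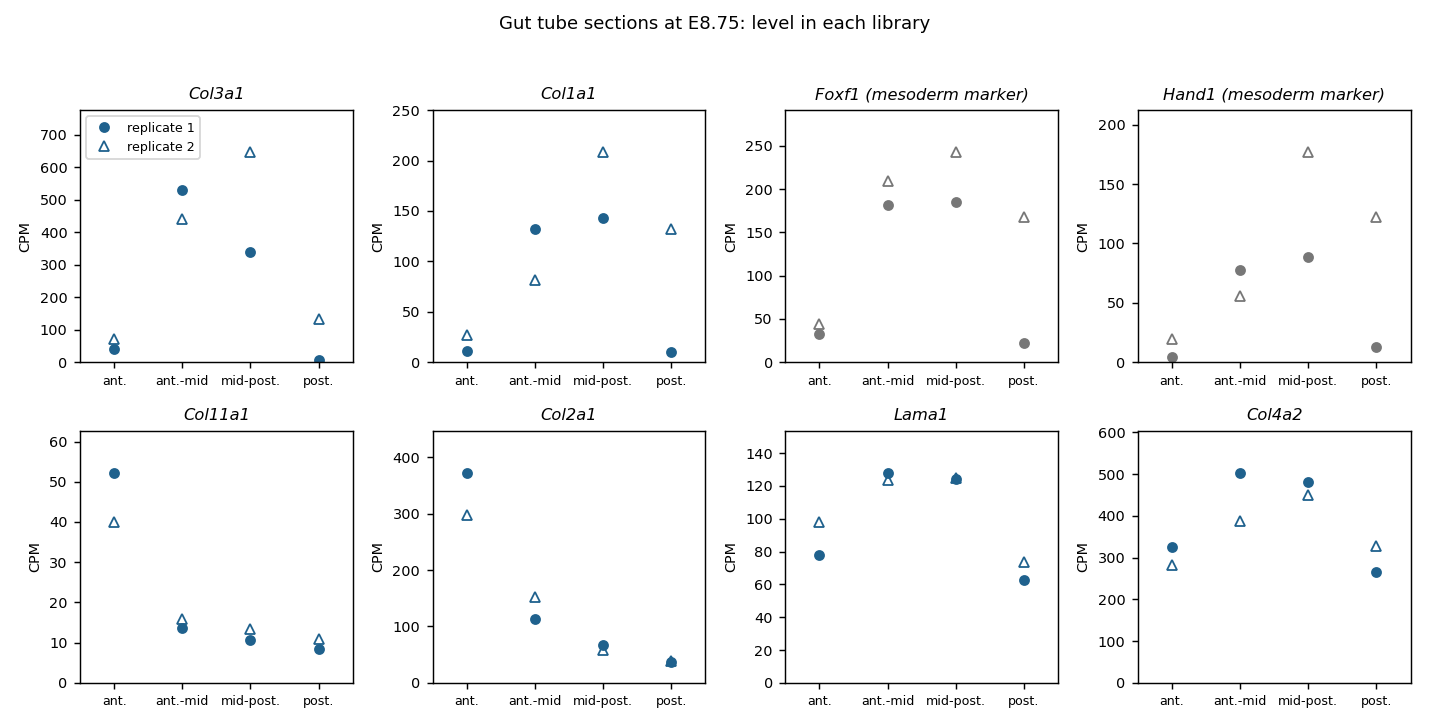
Levels in CPM (linear axes from 0) of 6 members and the mesoderm markers Foxf1 and Hand1 in the 4 sections, ordered from anterior to posterior; circles and triangles are replicates 1 and 2. Col11a1 and Col2a1 are highest in the anterior section, Lama1 and Col4a2 in the middle, and posterior replicate 1 lies near the bottom for Col3a1, Col1a1, Foxf1 and Hand1 while replicate 2 does not.

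Dissociation was compared with undissociated bulk tissue, and the 2 dissociated libraries differed from each other more than the libraries of any other group (chi-square per gene 322, against 29.0 to 96.8). No member passed, and 0% of all genes tested passed in edgeR. At an unadjusted p under 0.05 there were 4 members and 2809 genes, and DESeq2 called 1 member, Agrn, among 296 genes. Agrn stood at 323 and 304 CPM in dissociated cells and 408 and 463 CPM in bulk tissue (log2 -0.47, SE 0.12, adjusted p = 0.254). Nid1 stood at 147 and 28.7 CPM in dissociated replicates 1 and 2, against 85.8 and 85.3 CPM in bulk tissue. Lamc1 (268 and 154 CPM) and Col4a5 (46.4 and 14.9 CPM) were also lower in replicate 2, while Sparc (346 and 529 CPM), Col18a1 (560 and 735 CPM) and Col2a1 (93.5 and 321 CPM) were higher there. Endothelial markers summed to 819 and 354 CPM and visceral endoderm markers to 866 and 3300 CPM in these 2 libraries, and mitochondrial genes took 1.88% and 0.959% of counts. Their part was not tested. Without dissociated replicate 1, the log2 change of Nid1 was -1.58 and its direction turned. Which library stands for dissociated cells thus sets the direction for this gene.

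Other genes of the pathway were read from 4 lists, with the genes of smallest adjusted p named from each. Of 30 collagen processing enzymes and chaperones, 11 were higher and 11 lower in exVE than in emVE, where 20.1% and 23.8% of all genes were. P4hb, a subunit of prolyl 4-hydroxylase, stood at 1984 and 2201 CPM in exVE and 1137 and 1283 CPM in emVE (log2 0.79, SE 0.13, adjusted p = 0.0005). Bmp1, the procollagen C-proteinase, stood at 11.3 and 10.5 CPM against 19.6 and 25.6 CPM (log2 -1.05). P3h3, a prolyl 3-hydroxylase, and Adamts14, which trims fibrillar procollagen, fell by 2.94 and 4.53 on the log2 scale. Against emVE, 15 of the 30 were higher in bulk gut tube and 2 lower, where 21.7% and 16.9% of all genes were. Among the higher genes were P4ha2, another prolyl 4-hydroxylase subunit (45.7 and 27.2 against 8.26 and 5.80 CPM, log2 2.37), and Serpinh1, the collagen chaperone (1179 and 1021 against 504 and 598 CPM, log2 1.00, adjusted p = 0.000101). Among sections 6 passed, against 12.9% of all genes tested. P4ha3, a further subunit of that enzyme, stood at 4.42 and 2.62 CPM in the anterior section and 8.98 and 10.9 in the anterior-midgut. It reached 41.3 and 30.4 CPM in the midgut-posterior and 34.5 and 26.9 CPM at the posterior end (F-test adjusted p = 0.00077).

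Of 18 receptors for basement membrane, 4 were higher and 5 lower in exVE than in emVE, where 20.1% and 23.8% of all genes were. Summed, the 18 stood higher in exVE, at 3353 and 3546 CPM against 2476 and 2798 CPM in emVE. The genes named for this comparison were all lower. Sdc1, a heparan sulfate proteoglycan of the cell surface, stood at 16.9 and 8.71 CPM in exVE and 45.2 and 50.7 in emVE (log2 -1.90, adjusted p = 4.61e-05), and Bcam, a receptor for Lama5, at 17.1 and 10.9 against 104 and 143 CPM (log2 -3.14). Gpc4 and the laminin-binding integrin chain Itga6 fell by 2.74 and 1.33 on the log2 scale. In bulk gut tube 8 of the 18 were higher than in emVE and 2 lower, where 21.7% and 16.9% of all genes were. Sdc1 reached 177 and 182 CPM there, Itga3, another laminin-binding chain, stood at 186 and 202 against 29.5 and 52.8 CPM, and Itga6 at 95.9 and 117 against 40.8 and 35.7 CPM. Among sections 6 passed, against 12.9% of all genes tested. Cd151, a tetraspanin partner of these integrins, was highest in the midgut-posterior section (165 and 139 CPM, against 82.6 to 155 CPM elsewhere).

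Of 31 other basement membrane and matrix proteins, 20 were lower and 4 higher in exVE than in emVE, where 23.8% and 20.1% of all genes were. Their sums overlapped, at 2414 and 2300 CPM in exVE and 2162 and 2450 CPM in emVE. Vtn (vitronectin) stood at 0.645 and 0.272 against 14.5 and 20.4 CPM, Bgn (biglycan) at 0.484 and 0.272 against 3.70 and 4.22 CPM, and Frem1, a matrix protein of epithelial basement membranes, at 1.81 and 1.40 against 43.6 and 42.4 CPM. In bulk gut tube 15 were higher than in emVE and 4 lower, where 21.7% and 16.9% of all genes were. Among sections 13 passed, against 12.9% of all genes tested. Npnt (nephronectin), an integrin ligand of epithelial basement membranes, had the smallest adjusted p of the 4 lists among sections (2.97e-05). It stood at 188 and 161 CPM in the anterior section, 86.0 and 100.1 in the anterior-midgut, 41.9 and 49.8 in the midgut-posterior and 21.0 and 19.5 CPM in the posterior section, with no overlap between neighbours.

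Of 22 matrix proteases and inhibitors, 14 were lower and 3 higher in exVE than in emVE, where 23.8% and 20.1% of all genes were. Summed, however, the 22 stood higher in exVE, at 6512 and 7143 CPM against 2428 and 2630 CPM in emVE. The genes named for this comparison were both lower. Mmp2, a gelatinase that cleaves type IV collagen, stood at 1.61 and 0.661 against 23.3 and 28.4 CPM (log2 -4.51), and its inhibitor Timp2 at 1.98 and 0.700 against 16.6 and 17.3 CPM (log2 -3.67). In bulk gut tube 11 were higher than in emVE and 2 lower, where 21.7% and 16.9% of all genes were. The 2 lower genes were the lysosomal cathepsins Ctsl (191 and 235 against 1251 and 1271 CPM) and Ctsb (121.0 and 136 against 778 and 907 CPM). Among sections 3 of the 22 passed, close to the 12.9% of all genes tested. These were Ctsl, Ctsb and Plat, and all 3 peaked in the middle sections.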

How the data were processed

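Polyadenylated RNA was measured in 16 libraries of 8 groups. Each deposited file gives whole-number counts for gene symbols, and the values show no scaling. The submitters' processing notes name STAR; its version, the genome build, the annotation, the counting program and the use of strand in counting are facts not given in the sources used here. Each file had 26795 entries, and symbols listed more than once were summed.

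Tests used the package edgeR 4.0.16 (R 4.3.3) with TMM factors, filterByExpr by group (minimum count 10, minimum total 15; 17313 genes tested, all 58 members among them) and 1 quasi-likelihood fit of all 16 libraries (8 residual degrees of freedom). This gave 8 pairwise comparisons and 1 F-test for the 4 sections. Adjusted p-values are Benjamini-Hochberg values over all genes tested, two-sided, and genes passed under 0.05. Printed levels are CPM on TMM-scaled library sizes. Levels of different genes were compared only per kilobase of union exon length (GENCODE vM21), which may differ from the lengths the authors counted. Where a gene had 0 counts in both libraries of a group, 3 counts for the pair gave the bound of its fold, which covers counting error only. Overlapping exons, as of Col4a1 and Col4a2, can share reads.

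The members and lists were chosen with earlier results of these data known. Named genes are members (values by library for Lama1, Lamb1, Lamc1, Col4a1, Col4a2, Nid1, Nid2, Hspg2, Agrn and Sparc, and for the 8 smallest adjusted p-values of a comparison), up to 4 genes of smallest adjusted p from each other list, and markers; further members given by library, and Foxf1 and Hand1, were chosen after their values were seen. Alternatives were RLE factors, no filter, a replicate block, only the compared groups, DESeq2 1.42.0 and each library left out, with library totals alone added after seeing the data. The steps were tested on simulated data. Libraries of a group differed beyond sampling noise (chi-square per gene 29.0 to 322). This cannot show that they come from different embryos, and all were kept as replicates. Deviations of same-numbered libraries had correlations across genes of -0.108 to 0.216 over the comparisons. With 2 libraries a group these cannot show pairing, and the labels do not explain the numbers. Any single-cell libraries were not analysed here. A single member enters the counts but is not reported here by name.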

Additional observations from a re-analysis of the deposited data

How the results depend on the processing

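The counts of genes that passed depended on the fit more along the gut tube than between stages. The share of all genes that passed is in parentheses, except for the ranges with 1 library left out that close the paragraph. For posterior against anterior section, DESeq2 called 19 of the 58 genes (13.2%), and leaving out 1 library gave 5 to 10 (3.44% to 5.79%). For anterior-midgut against anterior section, 10 passed with no filter on low counts (4.98%), 16 with only the compared groups in the fit (8.3%) and 14 by DESeq2 (9.99%), and 0 to 4 with 1 library left out (1.12% to 3.88%). For midgut-posterior against anterior-midgut section, 1 passed with only the compared groups (1.58%) and 1 by DESeq2 (2.52%). For posterior against midgut-posterior section, 3 passed with no filter (2.61%), 0 with only the compared groups (0.107%) and 8 by DESeq2 (7.46%), and 0 to 11 with 1 library left out (0.362% to 4.45%). For dissociated cells against bulk gut tube, DESeq2 called 1 (1.71%), and 0 to 6 passed with 1 library left out (0% to 26.6%). For any difference among the 4 sections, DESeq2 called 32 (21.5%), and the range was 7 to 21 (6.96% to 12.6%), with 7 without either anterior library, 9 without midgut-posterior replicate 1, and 10 and 11 without anterior-midgut replicate 1 and 2. With 1 library left out the counts were 28 to 36 for exVE against emVE, 19 to 28 for bulk gut tube against emVE (19 without bulk replicate 1, with 23.6%) and 44 to 48 for bulk gut tube against exVE. For these last comparisons, the share of all genes that passed fell whenever 1 library was left out. There, the spread of a lone library is taken from the other groups.

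Calls that passed in every setting numbered 24 of 37 for exVE against emVE, 17 of 32 for bulk gut tube against emVE, 43 of 48 for bulk gut tube against exVE, 3 of 10 for posterior against anterior section, 0 of 6 for anterior-midgut against anterior section and 0 of 1 for posterior against midgut-posterior section. Directions turned for Lama4, exVE against emVE (-1.95 without exVE replicate 1, with a range of -1.95 to 1.26 over the libraries left out), Col3a1, posterior against anterior section (-2.85 without posterior replicate 2, range -2.85 to 1.28), Nid1, dissociated cells against bulk gut tube (-1.58 without dissociated replicate 1, range -1.58 to 0.78), and, on library totals alone, Lama1, bulk gut tube against exVE (0.0525) and Lama5, bulk gut tube against exVE (0.4864). The cause was not tested. Library totals alone moved the median log2 change of all genes by -0.38 for exVE against emVE, 0.11 for bulk gut tube against emVE, 0.49 for bulk gut tube against exVE and -0.10 for dissociated cells against bulk gut tube.

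With a replicate block, the counts (share of all genes) were 36 for exVE against emVE (42.4%) and 10 for posterior against anterior section (6.93%). They were 6 for anterior-midgut against anterior section (4.81%) and 0 for midgut-posterior against anterior-midgut section (0.306%). They were 1 for posterior against midgut-posterior section (1.76%) and 0 for dissociated cells against bulk gut tube (0.0404%). For bulk gut tube, 29 passed against emVE (36.9%) and 49 against exVE (60.3%). For any difference among the 4 sections, 14 passed (11.4%). At 2 libraries a group, small differences cannot be told from the spread, and levels near 0.1 CPM rest on a few counts.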
